A study of Homo sapiens with 12 samples.

Results

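The genes described here are 33 genes of the hypoxia-inducible factor (HIF) pathway. They comprise 8 that make up or control the factor (HIF1A, EPAS1, ARNT, VHL, EGLN1, EGLN2, EGLN3 and HIF1AN) and 25 genes outside glycolysis that low oxygen is known to induce. They were chosen by gene symbol, with no measured value in the rule, but with earlier results of these data known. Of the 33 genes, 30 were among the 13554 genes of the knockdown table and the same number among the 13583 genes of the overexpression table. CA9, PLOD2 and STC2 were not analysed here.

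RNA was sequenced from SW480, an established human colon cancer cell line, in 4 stably transfected groups of 3 libraries each. The shGPD1L cells carry a short hairpin RNA against GPD1L, a cytosolic enzyme related to glycerol-3-phosphate dehydrogenase, and the shNC cells carry a control hairpin. The OE cells overexpress GPD1L and the Vector cells carry the empty vector, which gives 2 comparisons, each with its own control. The hairpin sequence, the promoter and the number of clones behind a line were not stated in the labels, nor was the oxygen level of the cultures. Each group therefore stands for 1 transfected line, and nothing says that its 3 libraries came from separate cultures, so the p-values below measure the spread between libraries, which may be technical.

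In cells with enough oxygen, the prolyl hydroxylases encoded by EGLN1, EGLN2 and EGLN3 modify the HIF alpha subunits, and the VHL ubiquitin ligase then marks them for degradation. HIF1AN adds a further hydroxyl group that keeps the alpha subunits from binding their coactivators. When oxygen falls the alpha subunits escape this control, pair with ARNT and bind short DNA elements near the genes they induce, among them EGLN3 itself. GPD1L has been linked in other cells to the activity of these hydroxylases. HIF alpha is set largely at the level of protein, which RNA sequencing does not measure.

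The short core of the HIF binding element reads ACGTG or GCGTG. Both were searched on both strands in the window from 250 bases before to 50 bases after the gene start given by RefSeq (GRCh38.p14), and 27 of the 33 genes had such a window. Either core was present in 18 of the 24 windows of genes with expression values (75%), against 63.5% of the 9901 windows of all genes with values. ACGTG was present in 12 of those 24 windows (50%), against 26.7% of the 9901, and CACGTG, which contains ACGTG on both strands, in 5 (20.8%) against 10.3%. The windows of ARNT, EGLN3, RORA, HIF1AN, MXI1 and P4HA2 held neither core in these letters. Stretches of 100 bases, free of annotated exons, were placed within the 250 upstream bases where they held the most cores. The number of cores printed is therefore high by choice. CA12, KDM3A and RIOK3 had no exon-free stretch to show. Below are such 100-base stretches upstream of the start for 4 genes whose RNA differed between OE and Vector, with the cores in capitals. They are DDIT4 (chr10:72273781-72273880, plus strand), KDM4B (chr19:4968867-4968966, plus strand), EPAS1 (chr2:46297232-46297331, plus strand) and PLOD1 (chr1:11934559-11934658, plus strand). BNIP3 (chr10:131982014-131982113, minus strand) is shown because its stretch is dense in cores while its RNA was the lowest of the 30 genes. Each reads 5′ to 3′ on the strand of its gene, and CACGC and CACGT are the cores as read from the other strand.
DDIT4: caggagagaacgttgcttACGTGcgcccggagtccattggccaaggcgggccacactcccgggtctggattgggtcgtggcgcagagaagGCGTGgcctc
KDM4B: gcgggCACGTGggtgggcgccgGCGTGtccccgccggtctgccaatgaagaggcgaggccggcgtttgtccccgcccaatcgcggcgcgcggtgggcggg
EPAS1: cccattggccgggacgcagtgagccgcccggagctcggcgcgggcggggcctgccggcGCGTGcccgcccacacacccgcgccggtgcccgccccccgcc
PLOD1: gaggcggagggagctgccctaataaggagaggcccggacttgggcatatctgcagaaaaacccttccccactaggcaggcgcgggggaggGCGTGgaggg
BNIP3: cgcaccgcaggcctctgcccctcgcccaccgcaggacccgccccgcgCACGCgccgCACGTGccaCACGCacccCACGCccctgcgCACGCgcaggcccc

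Values are FPKM, the fragments mapped to a gene divided by its length and by the size of the library, which correct for gene length, so that levels of different genes can be set side by side within a table. A FPKM value does not show how many reads lie behind it, and the read depth of the libraries is unknown here. Gene values were tested on the log2(FPKM + 1) scale with limma, and a gene was called where its Benjamini-Hochberg adjusted p over all genes tested was under 0.05. On this scale the fold change of low genes is understated. GPD1L itself was 8.68, 8.01 and 9.10 FPKM in the shNC libraries and 1.55, 1.26 and 2.23 in shGPD1L, a change of -1.85 (SE 0.14, adjusted p = 0.00675). It was 10.7, 10.2 and 11.1 FPKM in Vector and 22.3, 22.8 and 22.1 in OE, a change of 1.01 (SE 0.0525, adjusted p = 4.74e-05). Both comparisons thus matched their labels. The knockdown call of GPD1L was lost when 1 shNC library was left out, with adjusted p of 0.0683, 0.0527 and 0.0839 without libraries 1, 2 and 3, over a range of 0.000402 to 0.0839 in the alternatives tried.

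The labelled cell type was checked against colon epithelial markers and markers of other cells. The epithelial markers summed to 5065 to 5427 FPKM in shNC, 4203 to 4482 in shGPD1L, 3775 to 3883 in Vector and 4137 to 4267 in OE. Of 11 markers of stromal, immune and endothelial cells only COL1A1, PDGFRB and CD14 had values, summing to 3.59 to 4.25 FPKM in shNC, 3.01 to 3.85 in shGPD1L, 3.71 to 4.28 in Vector and 1.82 to 2.25 in OE. Of the 7 epithelial markers tested, 3 were called higher in OE (KRT8, KRT18 and KRT19) and 4 lower (EPCAM, CDH1, CDX2 and VIL1). The lower ones changed by -0.21 (EPCAM) to -0.59 (CDX2), which the sums do not show. The 2 markers of other cells that were tested, PDGFRB and CD14, were called lower. Over all genes 22.4% were called in OE. One library, shGPD1L 3, stood apart from the rest of the knockdown table, at 29.1 on the first principal component of all genes where the other 5 lay between -12.1 and 0.319. It was the farthest of its group for 14 of the 28 tested HIF pathway genes (50%) and for 55.5% of all genes.

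Overexpression of GPD1L went with higher RNA of a group of hypoxia-induced genes and with lower RNA of CA12, EPAS1, EGLN3 and PLOD1. Of the 29 HIF pathway genes that passed a mean of 1 FPKM, 10 rose, 4 fell and 15 did not pass the test. ANKRD37, counted among those that rose, passed that mean only through its OE libraries. Over all genes tested in this comparison, 22.4% were called, 12.2% higher and 10.3% lower, while 48.3% of the HIF pathway genes were called. These shares are descriptions, since earlier results of these data were known when the HIF pathway genes were chosen. Their median change was 0.128 on the log2 scale against 0.0243 over all genes, and the median size of change was 0.21 against 0.131. In 12 of the 29 genes the lowest OE library lay above the highest Vector library, and in 5 the groups were separated the other way. Over all genes these shares were 24.2% and 17.6%. In RNA from whole cultures, a change in the share of cells that express a gene and a change in RNA per cell cannot be told apart.

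**Figure D1:**
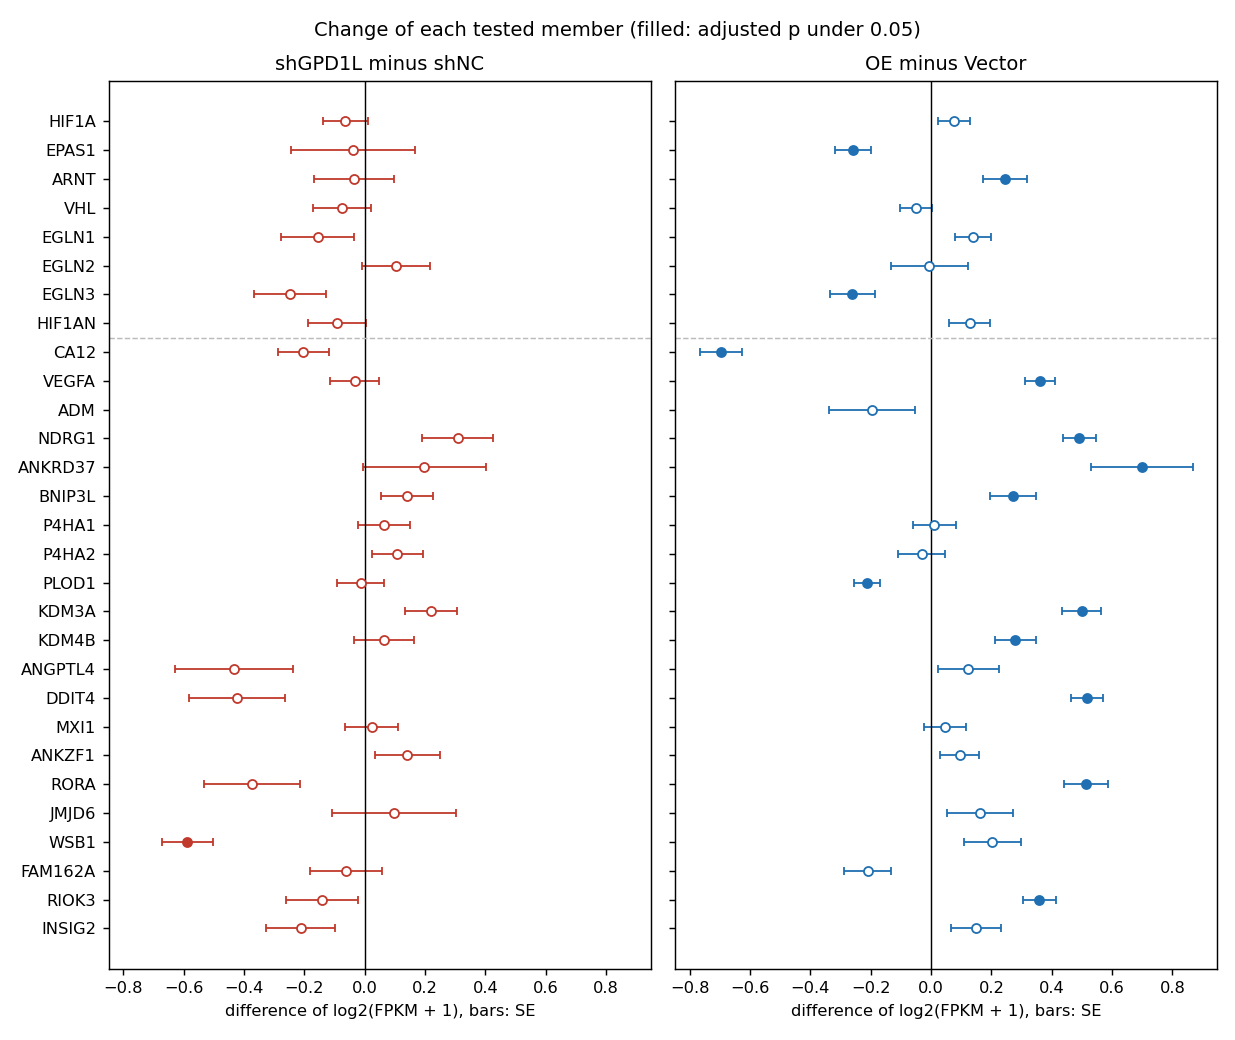
Change of each tested HIF pathway gene between shGPD1L and shNC (left) and between OE and Vector (right), as the difference of mean log2(FPKM + 1) with its standard error, with HIF subunits, hydroxylases and VHL above the dashed line and hypoxia-induced genes below it. Filled points passed an adjusted p of 0.05, which 1 gene did in the knockdown and 14 in the overexpression.

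Among the 8 subunit, hydroxylase and VHL genes, 1 rose, 2 fell and 5 did not pass the test in OE. The share called was 37.5%, where 22.4% of all genes were called. HIF1A, the alpha subunit found in most cells, was 19.3, 20.6 and 20.3 FPKM in Vector and 22.0, 20.3 and 21.4 in OE. Its groups overlapped, with a change of 0.08 (SE 0.0525, adjusted p = 0.323). EPAS1, which encodes the second alpha subunit HIF-2 alpha, was 9.58, 9.18 and 9.12 FPKM in Vector and 7.81, 7.76 and 7.26 in OE. The 3 OE libraries lay below the Vector libraries, with means of 9.29 ± 0.25 and 7.61 ± 0.304 (SD, n = 3) and a change of -0.26 (SE 0.059, adjusted p = 0.0182). This call was lost without Vector 1 (adjusted p = 0.0615), Vector 2 (0.0503) or OE 3 (0.0541), over a range of 0.0122 to 0.0615. ARNT, the shared beta subunit, was 10.3, 9.49 and 8.54 FPKM in Vector and 11.1, 11.8 and 11.1 in OE. Each OE value was above each Vector value, with means of 9.43 ± 0.87 and 11.3 ± 0.43 (SD, n = 3) and a change of 0.25 (SE 0.0729, adjusted p = 0.0443). ARNT lost its call without Vector 2 (adjusted p = 0.0996), Vector 3 (0.109), OE 1 (0.0771), OE 2 (0.121) or OE 3 (0.0811). It also did so with no filter on low values (0.0519), quantile normalization (0.0572), eBayes without trend (0.0525) and a replicate block (0.0642), that is in 9 of 16 alternatives, over a range of 0.0213 to 0.121.

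EGLN3, the prolyl hydroxylase that is itself a HIF target, was 3.07, 3.03 and 2.98 FPKM in Vector and 2.28, 2.37 and 2.43 in OE. The OE libraries were all lower, at 0.78 times the Vector mean, with a change of -0.26 (SE 0.0737, adjusted p = 0.0373). Leaving out any one library lost the EGLN3 call. The adjusted p was 0.0982, 0.0947 and 0.077 without Vector 1, 2 and 3 and 0.0913, 0.082 and 0.0683 without OE 1, 2 and 3. It was 0.0533 with equal library totals, 0.0555 with quantile normalization and 0.0812 with a replicate block, over a range of 0.0137 to 0.0982. In the annotation EGLN3 overlaps SPTSSA on the same strand. EGLN1, the main oxygen sensor among the hydroxylases, was 11.7, 12.1 and 10.7 FPKM in Vector and 12.8, 12.7 and 12.7 in OE. The groups of EGLN1 did not overlap, but the change of 0.14 (SE 0.0602) had an adjusted p of 0.13, which became 0.0495 with equal library totals. The others gave no call, with changes of -0.01 for EGLN2 (adjusted p = 0.976), 0.13 for HIF1AN (adjusted p = 0.203) and -0.05 for VHL (adjusted p = 0.536). EGLN2 overlaps the readthrough gene RAB4B-EGLN2, so its values are uncertain.

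**Figure D2:**
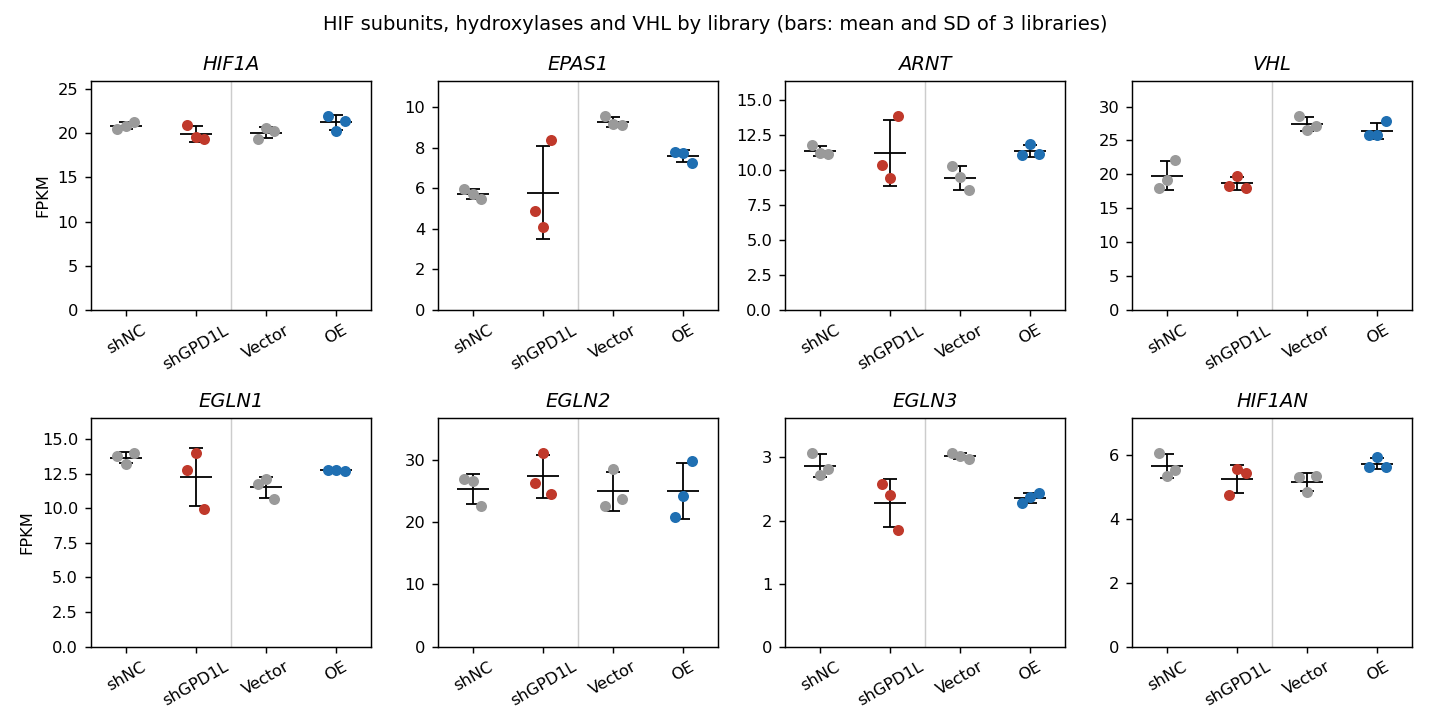
FPKM of the HIF subunits, hydroxylases and VHL in each of the 12 libraries (points), with mean and SD of 3 libraries per group (bars), the knockdown table left and the overexpression table right of each vertical line. EPAS1 and EGLN3 sat lower in OE than in Vector and ARNT higher, and 1 shGPD1L library lay above the rest for EPAS1 and ARNT.

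The hypoxia-induced genes, which were 21 of the 29 genes tested in the overexpression, supplied most of the rises. Of the 21, 9 rose, 2 fell and 10 did not pass the test. The share called was 52.4%, where 22.4% of all genes were called, 12.2% higher and 10.3% lower. The median change of the 21 was 0.162, against 0.0243 over all genes. The 9 include ANKRD37, whose level passed the minimum only through its OE libraries. Of the 9 that rose, 6 kept the call in all 16 alternatives tried: VEGFA, NDRG1, KDM3A, DDIT4, RORA and RIOK3. VEGFA encodes the angiogenic growth factor that is among the best known HIF targets. It was 45.5, 46.5 and 42.9 FPKM in Vector and 60.6, 57.3 and 56.4 in OE. The groups were far apart, at 45.0 ± 1.87 and 58.1 ± 2.22 FPKM (SD, n = 3), a ratio of 1.29 and a log2 change of 0.36 (SE 0.0498, adjusted p = 0.00251, range 0.00137 to 0.0119 over the alternatives). NDRG1, an intracellular protein induced by hypoxia and cell stress, was 55.0, 56.7 and 54.2 FPKM in Vector and 78.0, 73.1 and 83.6 in OE. Every OE library was higher, at 1.41 times the Vector mean, and the log2 change was 0.49 (SE 0.0547, adjusted p = 0.00113, range 0.000653 to 0.00921). DDIT4, also called REDD1, restrains mTORC1 signalling and answers both hypoxia and other stresses. Its level was the highest of the 14 genes called, at 220, 233 and 222 FPKM in Vector and 304, 319 and 344 in OE. The OE libraries again lay above the Vector libraries, at a ratio of 1.43 and a log2 change of 0.52 (SE 0.0526, adjusted p = 0.000772, range 0.000407 to 0.00509).

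KDM3A, a histone H3 lysine demethylase that HIF induces, was 9.69, 8.70 and 9.05 FPKM in Vector and 13.3, 12.7 and 14.0 in OE. The groups were well separated, at a ratio of 1.46 and a log2 change of 0.50 (SE 0.0635, adjusted p = 0.00188, range 0.00121 to 0.011). RORA, a nuclear receptor that acts in the circadian clock and lipid metabolism, was 10.3, 10.4 and 10.2 FPKM in Vector and 16.9, 13.8 and 15.0 in OE. Its Vector libraries hardly differed and each OE library was above them, at a ratio of 1.47 and a log2 change of 0.51 (SE 0.0737, adjusted p = 0.00301, range 0.00191 to 0.0149). RIOK3, a kinase of the RIO family, was 36.0, 35.7 and 35.3 FPKM in Vector and 49.4, 43.3 and 45.5 in OE. It too showed no overlap, at a ratio of 1.29 and a log2 change of 0.36 (SE 0.0549, adjusted p = 0.00392, range 0.00206 to 0.0185).

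The calls of the other rising genes were lost when any one of several libraries was left out. Over all genes, the share called also fell, from 22.4% to between 12.6% and 16.2%, with 1 library left out. KDM4B, a second histone demethylase of the pathway, was 11.1, 10.5 and 9.82 FPKM in Vector and 12.1, 12.9 and 13.7 in OE, without overlap. Its log2 change was 0.28 (SE 0.0669, adjusted p = 0.0214), and the call was lost without Vector 2 (0.0606), Vector 3 (0.06), OE 2 (0.0583) or OE 3 (0.0635), over a range of 0.0103 to 0.0635. With the replicate number as a block, the adjusted p of KDM4B was 0.0551. BNIP3L, a mitochondrial receptor for mitophagy, was 19.7, 20.1 and 21.7 FPKM in Vector and 27.7, 22.6 and 24.8 in OE. The lowest OE library lay just above the highest Vector library, and the log2 change was 0.27 (SE 0.0759, adjusted p = 0.0366). The BNIP3L call was lost without Vector 1 (0.103), Vector 2 (0.102), OE 1 (0.0863) or OE 3 (0.0768), and with quantile normalization (0.0656), eBayes without trend (0.0552) or a replicate block (0.0573), over a range of 0.017 to 0.103. PNMA2 overlaps BNIP3L on the other strand, and the sources used here do not give the strandedness, so the reads of this pair may be mixed. The same holds for ANKRD37, a small ankyrin repeat protein and HIF target, which overlaps UFSP2. ANKRD37 was 1.02, 0.679 and 1.19 FPKM in Vector and 2.85, 1.51 and 2.29 in OE. It passed the minimum level only through its OE libraries, so that a higher level there was part of its selection. The change of 0.70 (SE 0.169, adjusted p = 0.0218) was not called without Vector 2 (0.0717), OE 1 (0.0633) or OE 3 (0.0585), over a range of 0.0117 to 0.0717, and was 1.11 with a pseudocount of 0.1.

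**Figure D3:**
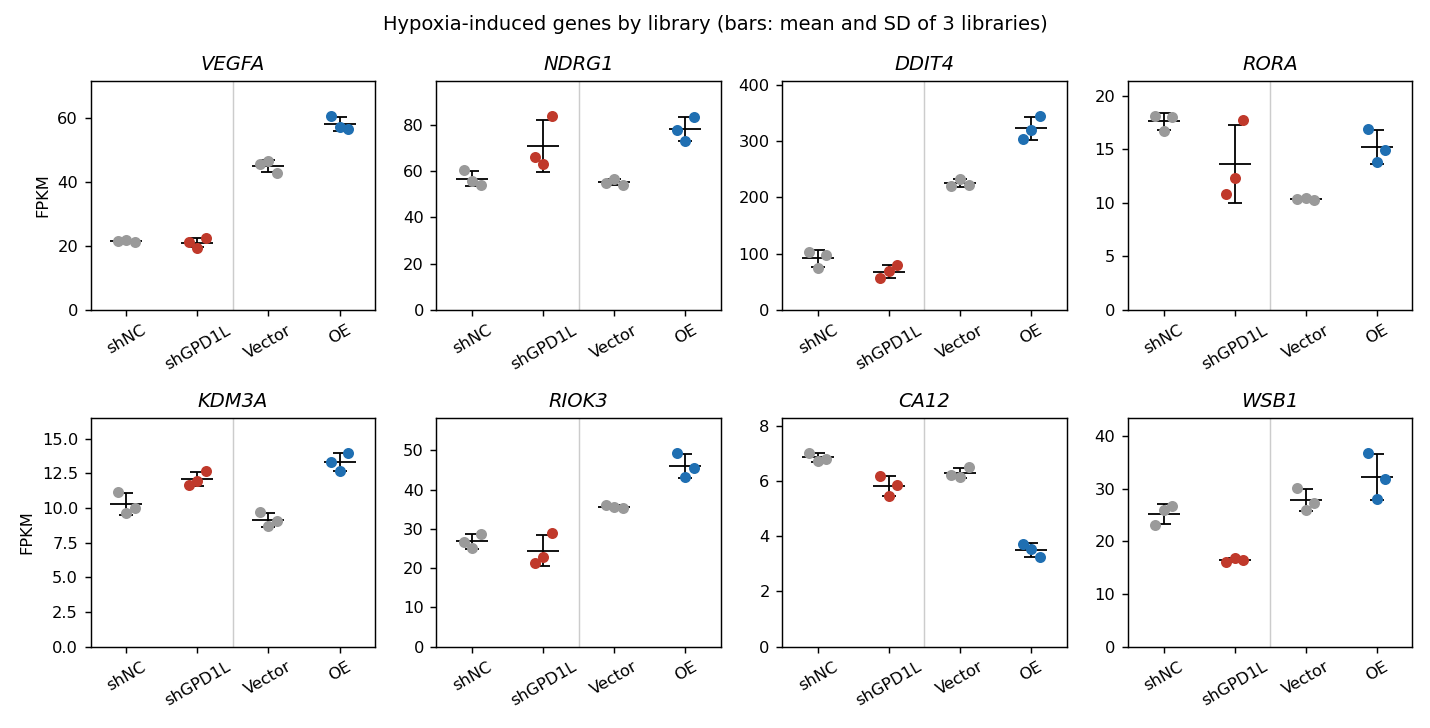
FPKM of 8 hypoxia-induced genes in each of the 12 libraries (points), with mean and SD of 3 libraries per group (bars), the knockdown table left and the overexpression table right of each vertical line. VEGFA, NDRG1, DDIT4, RORA, KDM3A and RIOK3 sat higher in OE than in Vector, CA12 lower, and WSB1 was lower in shGPD1L than in shNC.

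CA12 fell further than any other gene of the pathway that was tested in the overexpression. It encodes a membrane carbonic anhydrase that, like CA9, helps tumour cells control pH. Its values were 6.22, 6.13 and 6.50 FPKM in Vector and 3.70, 3.55 and 3.24 in OE. The OE mean of 3.5 ± 0.237 was 0.557 times the Vector mean of 6.28 ± 0.192 (SD, n = 3), far outside the spread, with a log2 change of -0.70 (SE 0.0707, adjusted p = 0.000765, range 0.000487 to 0.00661). PLOD1, a lysyl hydroxylase of collagen processing, was 109, 105 and 102 FPKM in Vector and 87.6, 92.5 and 93.0 in OE. The OE libraries were all lower by a modest amount, with a log2 change of -0.21 (SE 0.0442, adjusted p = 0.0125). That call was lost without Vector 1 (adjusted p = 0.0501), over a range of 0.00685 to 0.0501.

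The other collagen-modifying genes gave no call in OE. P4HA1 and P4HA2, catalytic subunits of collagen prolyl 4-hydroxylase, had changes of 0.01 (adjusted p = 0.924) and -0.03 (adjusted p = 0.794), with overlapping groups. ANGPTL4, a secreted inhibitor of lipoprotein lipase, was 5.32, 5.54 and 5.43 FPKM in Vector and 6.28, 4.99 and 6.87 in OE. Its OE libraries fell on both sides of the Vector libraries, with a change of 0.12 (adjusted p = 0.404). FAM162A, a mitochondrial protein induced by hypoxia, was 11.8, 10.8 and 11.1 FPKM in Vector and 10.6, 8.66 and 9.51 in OE. Although its groups did not overlap, the change of -0.21 (SE 0.0768) had an adjusted p of 0.0819, and of 0.041 without OE 1. JMJD6, a 2-oxoglutarate-dependent oxygenase, had a change of 0.16 (adjusted p = 0.312), which was 0.29 without OE 1 (adjusted p = 0.0348). The remaining changes were 0.20 for WSB1 (adjusted p = 0.156), 0.15 for INSIG2 (adjusted p = 0.225), 0.09 for ANKZF1 (adjusted p = 0.323), 0.05 for MXI1 (adjusted p = 0.663) and -0.19 for ADM (adjusted p = 0.357). BNIP3, the mitophagy receptor related to BNIP3L, stayed under the minimum in both tables and was not tested. Its levels were 0.320, 0.879 and 0.761 FPKM in Vector and 1.07, 0.913 and 1.12 in OE. The lowest OE library lay just above the highest Vector library, at levels too low for a test here.

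Few of these genes passed the test in the knockdown. Of the 28 tested, WSB1 fell and 27 did not pass, where 0.592% of all genes were called, 0.115% higher and 0.477% lower. ADM and BNIP3 lay under the minimum. At an unadjusted p under 0.05 there were 6 of the 28 (21.4%), where 16.3% of all genes were, and the median change was -0.0367 against -0.0356 over all genes. WSB1 encodes a substrate receptor of a ubiquitin ligase and is induced by hypoxia. It was 23.1, 25.9 and 26.7 FPKM in shNC and 16.0, 16.8 and 16.4 in shGPD1L. The 3 knockdown libraries were close together and far below the controls, at 16.4 ± 0.393 against 25.2 ± 1.89 FPKM (SD, n = 3), or 0.651 times the control mean, and the log2 change was -0.59 (SE 0.0833, adjusted p = 0.0341). The call was lost without shNC 1 (0.191), shNC 2 (0.169), shNC 3 (0.208), shGPD1L 1 (0.173) or shGPD1L 2 (0.0775), and with a replicate block (0.195) or quantile normalization (0.0562). Over the alternatives the adjusted p of WSB1 ran from 0.0135 to 0.208 and its change from -0.65 to -0.54.

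In the knockdown none of the 8 subunit, hydroxylase and VHL genes was called by limma, and none had an unadjusted p under 0.05. Their values were negative for 7 of 8, the exception being EGLN2 at 0.10 (adjusted p = 0.69). Negative values were also the more frequent over all genes, of which 41.6% were positive. HIF1A was 20.5, 20.8 and 21.3 FPKM in shNC and 20.9, 19.5 and 19.3 in shGPD1L, with overlap and a change of -0.06 (SE 0.075, adjusted p = 0.711). EPAS1 was 5.98, 5.73 and 5.48 FPKM in shNC and 4.87, 4.10 and 8.40 in shGPD1L. Knockdown library 3 lay above all controls and the other 2 below, so that the change of -0.04 had an SE of 0.206 (adjusted p = 0.952). ARNT showed the same layout, at 11.8, 11.2 and 11.1 FPKM in shNC and 10.4, 9.41 and 13.9 in shGPD1L (change of -0.04, adjusted p = 0.924). EGLN3 was 3.08, 2.72 and 2.82 FPKM in shNC and 2.58, 2.41 and 1.84 in shGPD1L. The groups of EGLN3 did not overlap, with a change of -0.25 (SE 0.12, adjusted p = 0.357).

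Knockdown groups did not overlap for 6 tested genes, 3 on each side, where 9.54% of all genes lay higher and 15.1% lower without overlap. The shGPD1L values of NDRG1, KDM3A and BNIP3L lay above the controls and those of EGLN3, CA12 and WSB1 below. KDM3A was 11.2, 9.63 and 10.0 FPKM in shNC and 11.7, 12.0 and 12.7 in shGPD1L, a change of 0.22 (SE 0.0868, adjusted p = 0.271). NDRG1 was 60.4, 55.7 and 54.1 FPKM in shNC and 66.0, 63.0 and 83.9 in shGPD1L, a change of 0.31 (SE 0.117, adjusted p = 0.259). CA12 was 7.02, 6.73 and 6.80 FPKM in shNC and 6.17, 5.44 and 5.86 in shGPD1L, a change of -0.20 (SE 0.0849, adjusted p = 0.292). These are therefore values in separate ranges that did not pass the test.

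Another 2 genes gained a call when shGPD1L 3 was left out. ANGPTL4 was 5.22, 5.19 and 5.41 FPKM in shNC and 3.12, 2.72 and 5.54 in shGPD1L. With library 3 its change was -0.43 (SE 0.196, adjusted p = 0.324) and without it -0.68 (SE 0.0919, adjusted p = 0.0131). RORA was 18.1, 16.7 and 18 FPKM in shNC and 10.9, 12.3 and 17.7 in shGPD1L, with a change of -0.37 (SE 0.16, adjusted p = 0.301) that became -0.57 (SE 0.0808, adjusted p = 0.0148). For both, the other 2 knockdown libraries lay under the controls and library 3 among or above them. Without library 3, WSB1, ANGPTL4 and RORA were called lower, and 608 of all genes (5%) were called. DDIT4 was 104, 74.9 and 96.7 FPKM in shNC and 56.0, 69.1 and 79.6 in shGPD1L. These groups overlapped, with a log2 change of -0.42 (SE 0.159, adjusted p = 0.254). VEGFA was 21.5, 21.9 and 21.1 FPKM in shNC and 21.2, 19.5 and 22.4 in shGPD1L, a change of -0.03 (SE 0.0807, adjusted p = 0.877).

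The 2 comparisons were set against each other by testing the difference of their changes, OE minus Vector less shGPD1L minus shNC. Of the 28 genes tested in both tables, 11 had a lower value in shGPD1L and a higher one in OE, 2 had the reverse, 9 were higher in both and 6 lower in both. All genes leaned the same way, with 41.6% of changes positive in the knockdown and 55% in the overexpression. Their joint shares were not computed. The difference was called for 6 genes, 5 of them more positive in the overexpression and 1 more negative, which is 21.4% of the 28 where 14.1% of all genes were called, 9.14% positive and 5% negative. Over all genes the 1584 calls were 64.6% positive, a share that was 45.6% with median-of-ratios scaling. Among the HIF pathway genes it was 5 of 6 positive, and 4 of 5 with that scaling. DDIT4, RORA, WSB1, RIOK3 and VEGFA were the positive ones and CA12 the negative one.

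WSB1 had a difference of 0.79 (SE 0.132, adjusted p = 0.00411, range 0.00254 to 0.0154). It fell in shGPD1L and was 30.1, 25.9 and 27.3 FPKM in Vector and 36.8, 28.1 and 31.8 in OE. DDIT4 had a difference of 0.94 (SE 0.182, adjusted p = 0.00776, range 0.00134 to 0.0407) and RORA one of 0.89 (SE 0.19, adjusted p = 0.0114, range 0.000141 to 0.0389). These 3 kept the call in all 22 alternatives. For VEGFA the difference of 0.40 (SE 0.0895, adjusted p = 0.0151, range 0.00278 to 0.0664) came from the overexpression side, and it was not called with a replicate block (adjusted p = 0.0664). CA12 had lower values on both sides, so that its difference of -0.49 (SE 0.0989, adjusted p = 0.00875, range 0.00618 to 0.0504) stands for a more negative value in OE than in shGPD1L. With a replicate block the adjusted p of CA12 was 0.0504. The difference of RIOK3 was 0.50 (SE 0.138, adjusted p = 0.0326) and was lost in 12 of 22 alternatives, over a range of 0.00113 to 0.0856. Among them were median-of-ratios scaling (0.0698), quantile normalization (0.0615), a replicate block (0.0501) and leaving out shNC 1 (0.0627), shNC 3 (0.0798), shGPD1L 1 (0.0621), shGPD1L 2 (0.0532), Vector 1 (0.0634), Vector 2 (0.0713), Vector 3 (0.0669), OE 1 (0.0856) or OE 3 (0.0571).

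**Figure D4:**
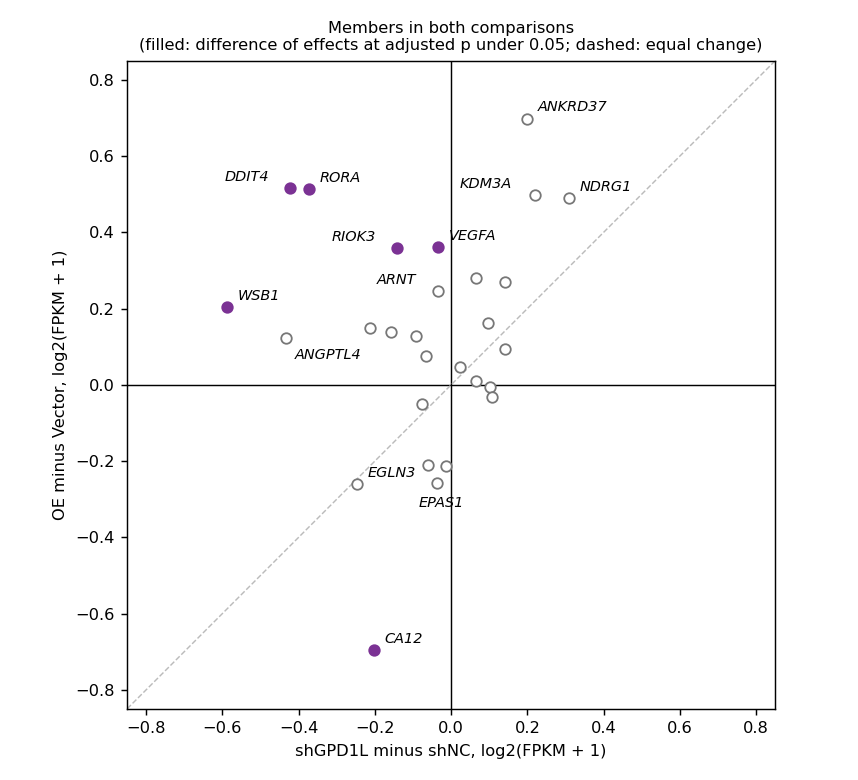
Change of each of the 28 HIF pathway genes tested in both tables, shGPD1L minus shNC across and OE minus Vector up, both on the log2(FPKM + 1) scale. Filled points are the 6 genes whose 2 changes differed at an adjusted p under 0.05, and the dashed line marks equal changes.

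Several genes that rose in OE did not have the opposite value in the knockdown. NDRG1 and KDM3A had higher values than the controls in both shGPD1L and OE, called only in OE, and their differences were not called except without shGPD1L 3, at 0.31 each (adjusted p = 0.0265 for NDRG1 and 0.0449 for KDM3A). Without that library 11 of the genes were called, and the share of all genes called also rose, from 14.1% to 23%, the added ones also including ANGPTL4 at 0.80 (adjusted p = 0.00245), ARNT at 0.43 (adjusted p = 0.0132) and KDM4B at 0.30 (adjusted p = 0.0406). None of the 8 subunit, hydroxylase and VHL genes was called by limma in the difference with all libraries, nor was any at an unadjusted p under 0.05.

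The 2 control lines did not sit at one level for these genes. Because the tables may have been scaled separately, the following ratios are descriptions with no test. Vector was at 2.45 times the shNC level for DDIT4, at 2.09 times for VEGFA and at 1.78 times for BNIP3L. The ratio was 1.74 for P4HA1, 1.73 for ADM, 1.62 for EPAS1 and 1.59 for INSIG2, an endoplasmic reticulum protein that restrains cholesterol synthesis. ADM barely reached the minimum of 1 FPKM in shNC, at a mean of 1.004 FPKM, and lay under it over the whole knockdown table. RORA went the other way, with shNC at 1.71 times Vector. These 8 genes are 28.6% of the 28 with at least 1 FPKM in both controls, where 11.9% of all genes differed by 1.5 times or more. As a result DDIT4 took the order shGPD1L, shNC, Vector, OE, while for RORA the OE libraries at 13.8 to 16.9 FPKM lay below the shNC libraries at 16.7 to 18.1, apart from the highest OE library.

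Beyond the 33 genes, 4 further lists of the pathway held 70 genes tested in the overexpression, of which 13 rose and 15 fell (40%, against 22.4% of all genes). These lists, like the 33 genes, were chosen with earlier results of these data known. With equal library totals the split was 20 and 10, so the balance of directions depended on the scaling. Of the 12 genes of HIF control and the VHL complex, 2 rose and 3 fell (41.7%), with a median change of -0.0389. RBX1, the RING subunit of the VHL ligase, fell from a mean of 27.2 to 22.5 FPKM (log2 change of -0.26, adjusted p = 0.00918). RACK1, a scaffold protein linked to oxygen-independent HIF1A degradation, fell from 1047 to 857 FPKM (log2 change of -0.29, adjusted p = 0.00647). CITED2, which competes with HIF for its coactivators, fell from 19.3 to 14.6 FPKM (log2 change of -0.40, adjusted p = 0.0299). The coactivator CREBBP rose by 0.25 (adjusted p = 0.037) and ELOC, a subunit of the VHL ligase, by 0.17 (adjusted p = 0.0321). The call of CITED2 was lost without Vector 1, 2 or 3 (adjusted p up to 0.0904), that of CREBBP without Vector 1, 2 or 3, OE 2 or OE 3 (up to 0.113) and that of ELOC without Vector 1, 2 or 3, OE 1 or OE 2 (up to 0.101). ELOC was also not called with a replicate block (0.0733), median-of-ratios scaling (0.0544), eBayes without trend (0.0537) or quantile normalization (0.0506), nor CREBBP with quantile normalization (0.0607) or the block (0.0575). With quantile normalization the change of RACK1 shrank to -0.13 (adjusted p = 0.0941).

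Glycolytic HIF targets were split, with 4 of 23 higher and 4 lower (34.8%) and a median change of -0.0427. The glucose transporter gene SLC2A3 rose from 8.80 to 12.6 FPKM (log2 change of 0.47, adjusted p = 0.0025) and hexokinase HK2 from 22.6 to 27.3 (log2 change of 0.26, adjusted p = 0.009), and ALDOA rose by 0.23 (adjusted p = 0.0187). ALDOC, a second aldolase, fell from 20.6 to 15.6 FPKM (log2 change of -0.39, adjusted p = 0.01), and ENO2 and TPI1 changed by -0.23 (adjusted p = 0.0132) and -0.19 (adjusted p = 0.0277). In the annotation ALDOA, ALDOC and ENO2 each overlap another gene on the same strand, and TPI1 overlaps SPSB2 on the other strand. The reads of these genes may therefore be mixed with those of the overlapping genes. The call of ENO2 was lost without Vector 2 (adjusted p = 0.0504), that of ALDOA without Vector 1, Vector 3 or OE 3 (up to 0.0615) and that of TPI1 without Vector 1 or 2 or OE 1, 2 or 3 (up to 0.0949). TPI1 was also not called with equal library totals (adjusted p = 0.0679), eBayes without trend (0.0642) or quantile normalization (0.191), the last with a change of -0.10.

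Of the 21 other hypoxia-induced genes, 6 rose and 6 fell (57.1%), with a median of 0.0674. The transcriptional repressor BHLHE41 rose from 3.10 ± 0.396 to 7.00 ± 0.572 FPKM (SD, n = 3, log2 change of 0.97, adjusted p = 0.000578), and its relative BHLHE40 from 7.01 to 10.2 (log2 change of 0.48, adjusted p = 0.00178). EFNA3, an ephrin ligand, TMEM45A, a membrane protein, and FLT1, a VEGF receptor, fell to means of 2.38, 1.62 and 1.94 FPKM, with log2 changes of -0.36 (adjusted p = 0.0268), -0.43 (adjusted p = 0.0203) and -0.34 (adjusted p = 0.0339). EFNA3 lost its call without Vector 1 or 2 or OE 1, 2 or 3 (adjusted p up to 0.0903), TMEM45A without Vector 1, Vector 3 or OE 3 (up to 0.067) and FLT1 without Vector 2 or 3 or OE 1, 2 or 3 (up to 0.099). FLT1 was also not called with quantile normalization (0.0658) or a replicate block (0.064).

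Of 14 enzymes that make or use 2-oxoglutarate, succinate and fumarate, metabolites that act on the hydroxylases, IDH3B rose by 0.25 (adjusted p = 0.00702) and IDH2 and SDHC changed by -0.23 (adjusted p = 0.0248) and -0.20 (adjusted p = 0.0385). These 3 calls are 21.4% of the list, near the 22.4% of all genes. The call of IDH2 was lost without Vector 1, 2 or 3, OE 1 or OE 2 (adjusted p up to 0.0769) and that of SDHC without any one library (up to 0.105), with equal library totals (0.0783) or with a replicate block (0.0696). In the knockdown limma called 0 of the 69 genes of these lists tested there, with 13 (18.8%) at an unadjusted p under 0.05 where 16.3% of all genes were, 0 called with robust eBayes and 5 called without shGPD1L 3, where 5% of all genes were. Of the 28 genes called in OE, 10 kept the call in all alternatives, among them RBX1, SLC2A3, HK2, ALDOC, BHLHE41, BHLHE40 and IDH3B.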

How the data were processed

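Poly(A) RNA of 12 SW480 libraries was sequenced, per the labels' protocols. The authors deposited FPKM in 1 table per comparison. Per the submitters' processing notes, tools included HISAT2, StringTie and DESeq2 (versions not stated) and the build was GRCh38. FPKM totals per library ran from 435140 to 444794 in the knockdown table and from 421714 to 438967 in the overexpression table, and read depth is unknown. With limma 3.58.1 in R 4.3.3, log2(FPKM + 1) was fitted for genes averaging 1 FPKM or more across a table's 6 libraries, by group with a trended prior. P-values were adjusted by Benjamini-Hochberg over 12156 genes (knockdown), 12208 (overexpression) and 11208 (difference of changes, all 12 libraries). The code was tested on simulated data.

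The genes and lists were chosen with earlier results of these data known. Genes named are GPD1L, the 33 genes, and of the 4 further lists any gene called in the knockdown and, per list, up to 3 rising and 3 falling in OE with the largest changes. One gene that this rule names is not reported here. Genes named only for a setting without shGPD1L 3 were chosen after their values were seen. Groups were taken from the titles, since the genotype label numbers the gene name along the replicates. Alternatives were the pseudocounts 0.1 and 0.5, no filter or 5 FPKM, equal totals, median-of-ratios and quantile scaling, eBayes without trend or robust, a replicate block, and each library left out. Gene overlaps come from GENCODE 29 and promoters from RefSeq (GRCh38.p14). Besides the overlaps given above, HIF1AN, ANKZF1, FAM162A, P4HA2, BHLHE41, KRT8, KRT18 and VIL1 overlap another gene with values on the other strand.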

Additional observations from a re-analysis of the deposited data

Results flagged for a closer look

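For each gene named here the change in OE and the change in shGPD1L differed by a test of the difference itself, in limma with Benjamini-Hochberg adjustment over all genes. All differences are OE minus Vector less shGPD1L minus shNC, on the log2(FPKM + 1) scale.

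The targeted gene GPD1L had a difference of 2.86 (SE 0.152, adjusted p = 2.30e-06), as its 2 manipulations have opposite signs. Among the 33 genes the difference was 0.94 for DDIT4, 0.89 for RORA, 0.79 for WSB1, 0.50 for RIOK3, 0.40 for VEGFA and -0.49 for CA12. DDIT4, RORA and WSB1 kept the call in all alternatives. RIOK3 lost it in 12 of 22 alternatives, and VEGFA and CA12 lost it with a replicate block.

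Of the 68 genes of the further lists tested for the difference, 9 were called (13.2%), near the 14.1% of all genes. Among these 9, BHLHE41 had a difference of 1.09 (adjusted p = 0.00694), with a change of -0.12 in shGPD1L against 0.97 in OE. HK2 had a difference of 0.39 (adjusted p = 0.00747). For ENO2 it was -0.58 (adjusted p = 0.00617), for RACK1 -0.50 (adjusted p = 0.00561), for EFNA3 -0.61 (adjusted p = 0.0365) and for IDH2 -0.30 (adjusted p = 0.0347). These last 4 had shGPD1L changes of 0.34, 0.21, 0.24 and 0.08, which did not pass the test, and were called lower in OE. The calls for EFNA3 and IDH2 were each lost in 10 of the alternatives, with adjusted p up to 0.103 and 0.0957 (both with a replicate block). Single libraries whose omission did so were, for EFNA3, shNC 1 and 2, shGPD1L 1 and 2, Vector 1 and 2 and OE 1, 2 and 3, and for IDH2, shNC 1, 2 and 3, shGPD1L 1, Vector 1, 2 and 3 and OE 1 and 2. HK2 lost its call with a replicate block (0.0579) and RACK1 with quantile normalization, where its difference shrank to -0.25 (adjusted p = 0.154).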

How the results depend on the processing

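No called gene among GPD1L, the 33 genes and the further lists changed sign under any alternative. The cell type markers were not followed across the alternatives. Of the 33 genes, 1 was called in the knockdown, and 0 with quantile normalization or a replicate block. Leaving out 1 library gave 0 to 3, for the further lists 0 to 5 where 0 were called, and for all genes 0 to 608 where 72 were called. In the overexpression 14 of the 33 were called, and 8 to 12 with 1 library left out (8 without Vector 2 and without OE 3). Over all genes, 2740 calls became 1540 to 1982 with 1 library left out, so fewer calls were not particular to these genes. For the further lists 28 became 14 to 19. In the difference of changes, 6 became 3 with the block and 5 to 11 with 1 library left out, and for the further lists 9 became 5 with the block and 5 to 16. For all genes, 1584 became 790 to 2572 with 1 library left out. Same-numbered libraries did not deviate together (correlations from -0.18 to 0.0222), so the numbers were not taken as pairing. With the replicate block, 3, 2021 and 483 of all genes were called in the knockdown, the overexpression and the difference, against 72, 2740 and 1584. The share of all calls that were higher moved with the scaling: in the knockdown from 19.4% to 32% (quantile), in the overexpression from 54.2% to 71.5% (equal totals). The cause of these shifts was not tested. Precision is limited by 3 libraries per group and by FPKM values that carry no read depth.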
